A study of Mus musculus with 4 samples.

Results

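Chemokine ligands were read in astrocyte-enriched cultures (AECs) of the mouse by all probes whose gene name in the array design was Ccl, Cxcl, Cx3cl or Xcl followed by a number and at most 1 letter. This rule found 35 genes with 48 probes, of 29676 gene names on the array, and 8 of the genes had several probes. The 2 groups of cultures were compared, untreated AECs (n = 2) and AECs after 15 h of oxygen–glucose deprivation (OGD, n = 2), in which cells were kept in medium without glucose under hypoxia. Both groups came from cerebral cortices of newborn ICR mice of either sex, and both had received PLX3397, an inhibitor of the CSF1 receptor that depletes microglia. The cultures were enriched for astrocytes rather than pure. The 4 arrays shared 1 slide and 1 scan.

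Chemokines are small secreted proteins that guide migrating leukocytes through G protein-coupled receptors. CXC ligands with the ELR motif mainly attract neutrophils through Cxcr2, the interferon-inducible CXC ligands attract T cells through Cxcr3, and many CC ligands attract monocytes through Ccr2 or other leukocytes through Ccr1 and related receptors. In the brain, reactive astrocytes and microglia are known sources of Ccl2, Cxcl1 and Cxcl10, and neurons are the best known source of Cx3cl1, the ligand of a microglial receptor. Several of these genes are textbook targets of NF-κB, and Cxcl10 is also a target of the interferon pathway.

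Of the 35 genes, 17 had a probe well above background on all 4 arrays, 6 were well above background on some arrays only, and 12 were on no array. A probe was well above background where the scanner software had marked its spots so. For a test, a probe had to be so marked on both untreated arrays or on both arrays after OGD, which held for 20 genes (30 probes) and not for the other 15. The processed signal of the lowest probe so marked lay between 6.33 and 7.34 on the 4 arrays. A gene is described by its brightest probe unless another is named.

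The arrays after OGD were dimmer as a whole, and this touches every value below. In untreated AECs the 75th percentile of the processed signal was 2135 and 2164, and after OGD it was 887 and 776. Between 64.5% and 73.7% of spots were well above background on each array, with the lower shares after OGD. Each array was scaled to this percentile, as the methods did. A probe with the same processed signal on all arrays therefore comes out higher after OGD by 1.37 on the log2 scale. Control RNA spiked into each labeling was read by its own probes, of which 9 were so marked on every array, and their mean differed by −0.085 on the log2 scale (OGD minus untreated). A second scale, set on these control probes, is therefore given beside the first wherever the direction or the call depends on it. It moves the median of all tested genes from 0.16 to −1.13. The methods labeled the same mass of total RNA from each sample, so that neither scale reads an amount per cell. In cultures measured in bulk, fewer cells of a type and less RNA per cell cannot be told apart.

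Astrocyte markers were present, with all 10 of the list well above background on all 4 arrays, including Gfap, the intermediate filament of astrocytes, at 47436 and 46408 in untreated AECs and 31713 and 28266 after OGD. Of 14 microglia markers, 9 were well above background on all 4 arrays. The summed signal of their probes was 11565 and 10875 in untreated AECs and 10512 and 8995 after OGD. Without Cd68, a lysosomal gene of phagocytes that read 1157 and 1213 before and 4301 and 3778 after OGD, it was 10407 and 9662 before and 6211 and 5217 after. Some markers of the list were low. Tmem119 was at 150 and 162 before and 38.5 and 27.9 after OGD, and P2ry12 at 19.5 and 21.5 before and 9.97 and 8.04 after. Aif1, which encodes Iba-1, was at 55.6 and 55.0 before and 46.8 and 40.7 after. These genes made up a small part of the summed signal. Of 13 microglia markers tested, 5 were higher and 2 lower (against 37.1% and 27.8% of all genes tested). With spiked-in scaling 1 was higher and 10 were lower (against 3.84% and 83.3%). Cd68 was higher after OGD by 3.14 in limma (adjusted p = 0.000729) and by 1.85 with spiked-in scaling. Of 6 neutrophil markers, S100a8, S100a9 and Ly6g were well above background on no array, Elane and Camp on all 4 and Mpo in untreated AECs only. Elane, a granule protease, read 154 and 123 before and 79.3 and 75.1 after OGD, and its difference was 0.54 (limma, adjusted p = 0.0402), against −0.75 with spiked-in scaling. The part of microglia or other remaining cells in the chemokine signal was not tested.

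The sequences shown are promoters of 3 of the 5 ELR ligands and of Cxcl10, from 250 bases before to 50 after the start of each gene, taken from RefSeq (GRCm38.p6). Cxcl2 is shown because it passed the fold limit of 10. Ccl7, which also passed it, and Ccl2 and Cxcl5 are named only. Cxcl1 and Cxcl3, its neighbors on chromosome 5, and Cxcl10 were added after the values had been seen. Capitals mark matches to the NF-κB consensus and to the interferon response motif GAAANNGAAA. Within the marked stretches printed below, 6211 stands for the letters CCC and 10407 for the letters AAA.
Cxcl2 (chr5:90903649-90903948, + strand): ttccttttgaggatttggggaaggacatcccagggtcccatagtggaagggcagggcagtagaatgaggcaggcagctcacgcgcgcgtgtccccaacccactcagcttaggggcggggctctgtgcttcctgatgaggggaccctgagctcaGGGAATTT6211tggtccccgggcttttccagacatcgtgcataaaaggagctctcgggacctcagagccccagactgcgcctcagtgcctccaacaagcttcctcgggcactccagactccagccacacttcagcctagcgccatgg
Cxcl1 (chr5:90890995-90891294, + strand): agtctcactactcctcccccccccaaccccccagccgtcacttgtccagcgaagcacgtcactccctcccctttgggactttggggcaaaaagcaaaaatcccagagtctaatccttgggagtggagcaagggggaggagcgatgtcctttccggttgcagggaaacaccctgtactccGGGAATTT6211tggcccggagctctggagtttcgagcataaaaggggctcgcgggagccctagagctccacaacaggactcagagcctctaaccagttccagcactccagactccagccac
Cxcl3 (chr5:90785851-90786150, + strand): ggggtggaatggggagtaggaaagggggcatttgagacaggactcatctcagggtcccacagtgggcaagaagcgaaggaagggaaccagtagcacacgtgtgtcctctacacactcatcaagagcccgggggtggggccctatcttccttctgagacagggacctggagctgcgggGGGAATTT6211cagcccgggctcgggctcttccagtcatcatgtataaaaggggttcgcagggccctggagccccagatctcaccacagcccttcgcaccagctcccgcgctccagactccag
Cxcl10 (chr5:92348840-92349139, − strand): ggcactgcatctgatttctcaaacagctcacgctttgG10407GTG10407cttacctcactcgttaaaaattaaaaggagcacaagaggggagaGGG10407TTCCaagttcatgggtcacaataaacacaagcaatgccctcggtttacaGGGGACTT6211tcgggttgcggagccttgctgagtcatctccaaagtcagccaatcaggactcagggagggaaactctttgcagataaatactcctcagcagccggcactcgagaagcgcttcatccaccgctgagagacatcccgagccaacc
Cxcl1, Cxcl2 and Cxcl3 held the same 11 letters, GGGAATTTCCC, which match the consensus on both strands in overlapping positions. They began at −71 in Cxcl1, −97 in Cxcl2 and −73 in Cxcl3, counted from the start of the gene. Cxcl15, the other ELR ligand searched, held no match to the consensus in its window. Cxcl10 held NF-κB matches at −159 and −104, an interferon response motif at −213 and the AP-1 motif TGANTCA at −74, left in lower case. Across all 32851 promoters of this length in RefSeq, searched on both strands, 8.46% held the NF-κB consensus, 3.44% the interferon response motif, 7.81% the AP-1 motif and 19.6% the hypoxia core ACGTG. Of the 24 chemokine ligand genes with a promoter in the table, 8 held the NF-κB consensus (Ccl1, Ccl9, Ccl20, Ccl27a, Cxcl1, Cxcl2, Cxcl3 and Cxcl10), 3 the interferon response motif (Ccl19, Cxcl10 and Cxcl14), 5 the AP-1 motif and 3 the hypoxia core. Ccl2, Ccl7 and Cxcl5 are not among these 24. A match is a run of letters, not a shown binding site. Of the 8 genes with the NF-κB match, Cxcl1, Cxcl2 and Cxcl10 were called higher on both scales, and Ccl1 was called lower on both. Ccl27a was called in opposite directions on the 2 scales. Of the 2 scales, Ccl9 passed only on the spiked-in one, as lower, and other settings called it higher, as given below. Ccl20 and Cxcl3 were well above background on no array. Cxcl12 and Ccl17, called higher on both scales, held no match in this window.

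**Figure D1:**
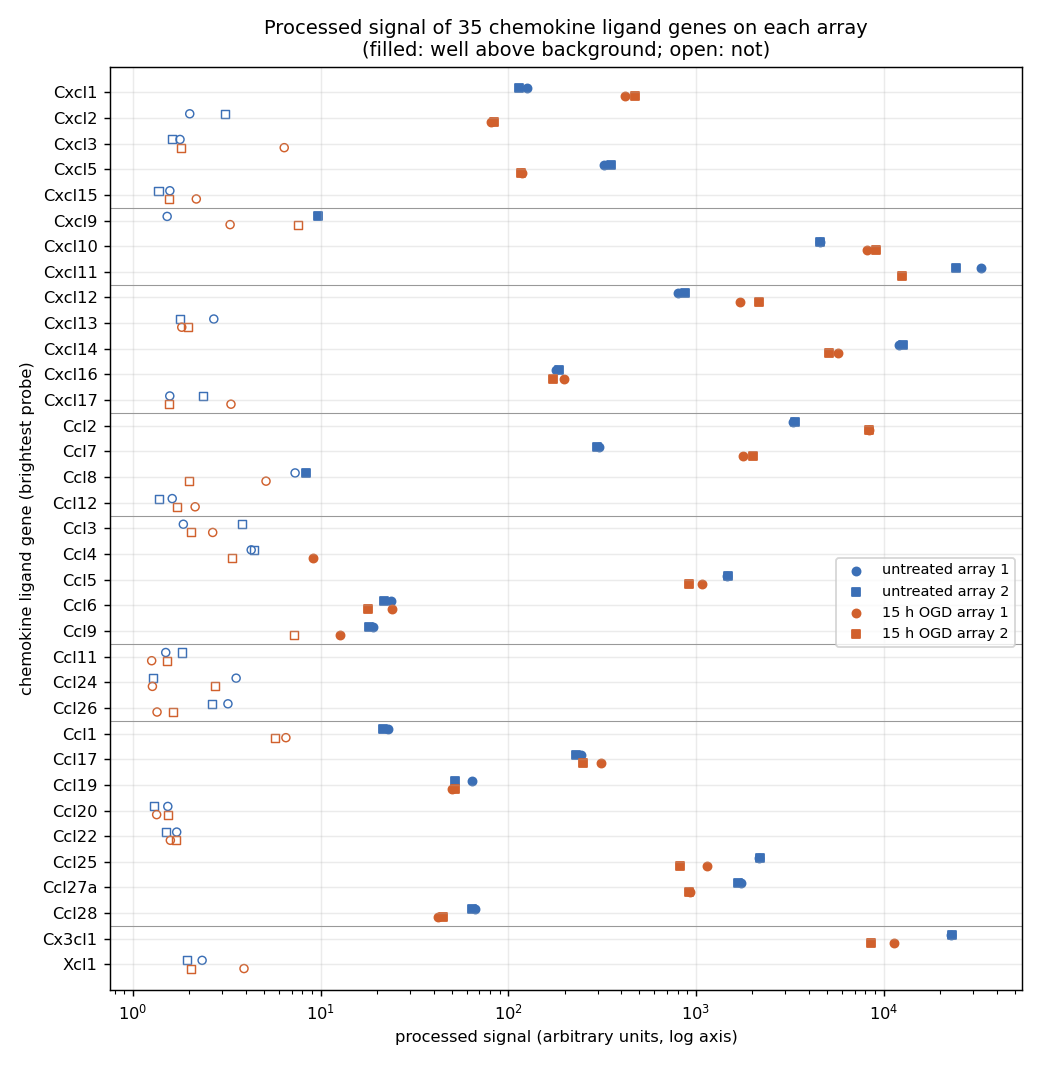
Processed signal (arbitrary units, log axis) of the brightest probe of each of the 35 chemokine ligand genes on the 4 arrays, grouped by role; filled symbols were well above background. Cxcl2 passed from 2.01 and 3.09 in untreated AECs, not well above background, to 80.8 and 84.4 after OGD, and levels of different genes are not comparable.

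Of the 20 genes tested, 13 were higher after OGD at an adjusted p under 0.05 in limma (65%, against 37.1% of all 21061 genes tested) and 1 was lower (5%, against 27.8%). Over 10-fold, 2 were higher (10%, against 0.707%), Cxcl2 and Ccl7, and 0 were lower (against 0.56%). By probe, 18 of the 30 tested were higher (against 37.9% of all probes tested) and 2 lower (against 27.1%). These counts depended on the scale: with spiked-in scaling 7 genes were higher (35%, against 3.84% of all genes) and 10 were lower (50%, against 83.3%). The median log2 fold change over the 20 genes was 1.00 beside 0.16 over all genes tested, and −0.29 beside −1.13 with spiked-in scaling. The 7 genes called higher on both scales were Cxcl1, Cxcl2, Cxcl10, Cxcl12, Ccl2, Ccl7 and Ccl17. For 3 genes, Ccl5, Ccl27a and Ccl28, the call was higher on the first scale and lower on the second. The 2 cultures of a group came from different pups by the methods, and p-values measure the spread between these cultures. The number of arrays limits the precision of every value, since an exact permutation test of 2 arrays against 2 cannot give a two-sided p below 0.333.

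**Figure D2:**
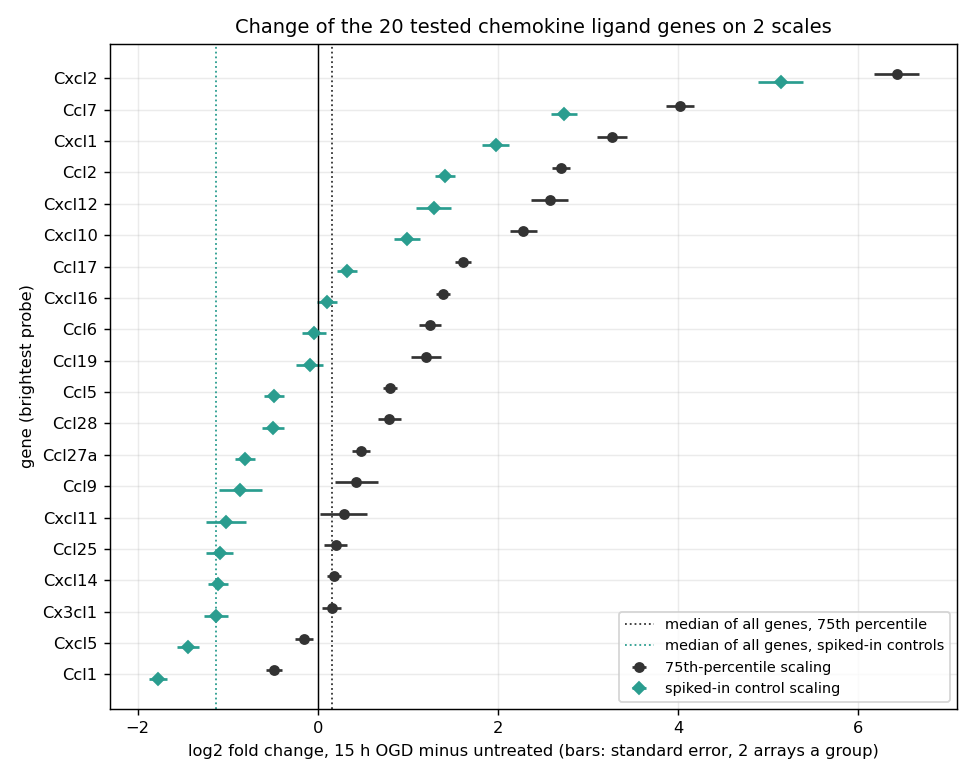
Log2 fold change (15 h OGD minus untreated, bars are standard errors, 2 arrays a group) of the 20 tested genes with 75th-percentile scaling (circles) and spiked-in control scaling (diamonds). Dotted lines are the medians of all genes tested, 0.16 and −1.13, and 10 genes that lie right of 0 on the first scale lie left of it on the second.

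Among the ELR CXC ligands, Cxcl2 and Cxcl1 were higher after OGD on both scales, and their neighbor Cxcl5 was not. Cxcl2, a neutrophil attractant, had a processed signal of 2.01 and 3.09 in untreated AECs, where it was not well above background, and of 80.8 and 84.4 after OGD. It was thus at least 31.4-fold higher (limma, adjusted p = 0.000765), or at least 12.9-fold with spiked-in scaling, where the bound is the mean after OGD against the lowest signal well above background on each untreated array. Its fitted difference was 6.42 ± 0.25, against 5.14 with spiked-in scaling and 2.46 with normexp background correction, which lifts dim probes. Cxcl1, which acts through the same receptor, was at 127 and 114 in untreated AECs and at 417 and 474 after OGD. It differed by 3.26 ± 0.17 (log2 fold change ± SE, n = 2 a group), which is 9.59-fold and just inside the limit of 10 (limma, adjusted p = 0.000976), and by 1.97 with spiked-in scaling. In both genes the groups did not overlap even as raw processed signal, although the OGD arrays were dimmer. Cxcl5, the attractant known as LIX, was at 324 and 352 before and 118 and 116 after OGD, a difference of −0.15 ± 0.10 that did not pass (limma, adjusted p = 0.253) but was −1.44 and past the threshold with spiked-in scaling. Cxcl3 was at 1.78 and 1.61 before and at 6.40 and 1.81 after OGD, and Cxcl15, a lung chemokine, was likewise well above background on no array.

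The ratio of 2 probes on the same array does not depend on the scale. The log2 ratio of Cxcl1 to Cxcl5 was −1.36 and −1.63 in untreated AECs and 1.82 and 2.03 after OGD, a change of 3.42 or 10.7-fold. This unequal change within 1 gene cluster therefore holds with either scale.

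Among the Cxcr3 ligands, which attract activated T cells, Cxcl10 was higher after OGD and Cxcl11 did not pass. Cxcl10 was at 4567 and 4598 in untreated AECs and at 8139 and 9094 after OGD. The difference was 2.28 ± 0.15, or 4.86-fold (limma, adjusted p = 0.00134), and 0.99 with spiked-in scaling (adjusted p = 0.00197). A second Cxcl10 probe, 0.835 kb away, was not well above background in untreated AECs (3.08 and 1.85) and read 51.6 and 113 after OGD. It was at least 29.0-fold higher (limma, adjusted p = 0.00218), or at least 11.9-fold with spiked-in scaling, and its difference was 2.52 on the log2 scale with normexp background correction. The 2 probes gave the same direction but not the same size. On the same arrays the log2 ratio of the second to the first changed by 4.09, or 17.1-fold. This ratio rests on untreated values of the second probe that were not well above background. With normexp background correction the first was at 2.24. That correction lifts dim probes, so the closeness of 2.52 and 2.24 does not show that the probes agree in size. The second carries an Ensembl rather than a RefSeq accession. Cxcl9 was well above background on 1 untreated array only (1.52 and 9.71 before, 3.29 and 7.55 after OGD) and was not tested.

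The brighter Cxcl11 probe read 33031 and 24273 in untreated AECs and 12486 on 1 array after OGD, its spot on the other having been marked as an outlier and left out. Its difference of 0.29 ± 0.26 rested on that 1 array and did not pass (limma, adjusted p = 0.402). The other Cxcl11 probe, measured on all 4 arrays, read 1759 and 1453 before and 523 and 626 after OGD, a difference of −0.11 (limma, adjusted p = 0.666). With spiked-in scaling both were lower, by −1.02 and −1.40. On the same arrays the log2 ratio of Cxcl10 to this second probe changed by 2.39, or 5.25-fold, so that these neighbors moved apart on any scale. The bright Cxcl11 probe also holds letters found at many other places, shown here because they bear on what it reads. Capitals mark the 16-base stretch of each probe that occurs in the most RefSeq promoters.
A_55_P2160387, bases 7 to 36: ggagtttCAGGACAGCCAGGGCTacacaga
A_55_P2044413, bases 21 to 50: cttgaaaGGCAGAGGCAGGAGGAtctcttg
The stretch of the bright probe occurs in 24 promoters and that of the other in 3. On the array, 11 probes of other genes shared some 16-base stretch with the bright probe. The 10 of those that could be tested had a median difference of 0.52 (log2). Of the 48 chemokine probes, 40 shared no such stretch with a probe of another gene. The part of other transcripts in the Cxcl11 signal was not tested.

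The remaining CXC ligands were led by Cxcl12, the homeostatic ligand of Cxcr4 made by astrocytes and vessels. Its 2 probes read different accessions and lie 6.2 kb apart on chromosome 6. One read 804 and 878 in untreated AECs and 1720 and 2168 after OGD, a difference of 2.57 ± 0.21 or 5.95-fold (limma, adjusted p = 0.00189), and 1.29 with spiked-in scaling (adjusted p = 0.00234). The other read 639 and 615 before and 777 and 583 after OGD, with overlapping raw signals. It differed by 1.48 ± 0.11 (limma, adjusted p = 0.00171), and by 0.19 with spiked-in scaling, which did not pass (adjusted p = 0.232). The log2 ratio of the first to the second was 0.33 and 0.51 in untreated AECs and 1.15 and 1.89 after OGD, a 2.14-fold change that does not depend on the scale. Cxcl14, an epithelial and glial chemokine without a settled receptor, was at 12058 and 12631 before and 5719 and 5119 after OGD. Its difference was 0.18 and did not pass (limma, adjusted p = 0.105), against −1.10 with spiked-in scaling. Cxcl16, a transmembrane ligand of Cxcr6, read 180 and 187 before and 198 and 174 after OGD, so that its raw signals overlapped. It was higher by 1.39 (limma, adjusted p = 0.00104) on the first scale, against 0.10 with spiked-in scaling (adjusted p = 0.421). Cxcl13, the B cell attractant, and Cxcl17 were well above background on no array.

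**Figure D3:**
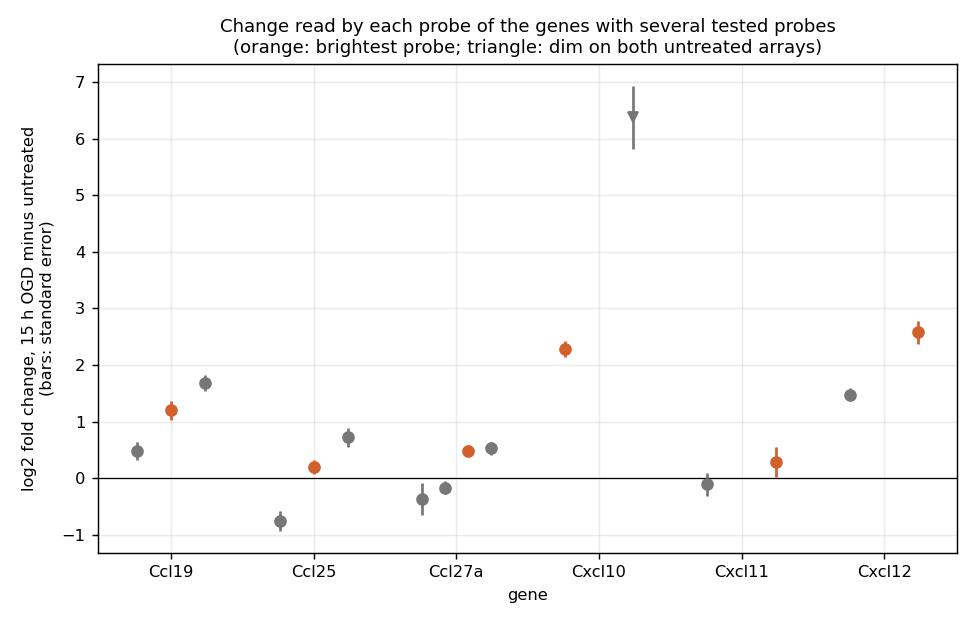
Log2 fold change (15 h OGD minus untreated, 75th-percentile scaling, bars are standard errors) of each tested probe of the 6 genes with several tested probes, with the brightest probe in orange. The triangle is the second Cxcl10 probe, which was not well above background in untreated AECs, and probes of Ccl25, Ccl27a and Cxcl11 lie on both sides of 0; with spiked-in scaling all probes of these 3 genes lie below 0.

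Among the CC ligands that attract monocytes through Ccr2 and related receptors, Ccl2 and Ccl7 were higher after OGD on both scales. Ccl2, the main monocyte attractant, was printed 10 times on each array, and the SD of the log2 signal between these spots was 0.047 to 0.067. It read 3295 and 3360 in untreated AECs and 8372 and 8324 after OGD, a difference of 2.70 ± 0.099 or 6.50-fold (limma, adjusted p = 0.000752), and 1.41 with spiked-in scaling. Ccl7, its neighbor 10.006 kb away, read 306 and 298 before and 1773 and 2019 after OGD. The difference was 4.02 ± 0.16 or 16.2-fold (limma, adjusted p = 0.000766), the largest of the chemokine ligand genes well above background on all 4 arrays, and 2.73 with spiked-in scaling. The log2 ratio of Ccl7 to Ccl2 changed by 1.32 or 2.50-fold on any scale. Ccl8 was well above background on 1 untreated array only (7.31 and 8.39 before, 5.12 and 1.99 after OGD), and Ccl12 on none.

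The fitted differences of Ccl5, Ccl6 and Ccl9, which act on T cells and myeloid cells, changed direction with the scale. Ccl5, or RANTES, an attractant of T cells and monocytes, read 1462 and 1485 in untreated AECs and 1073 and 915 after OGD. It was higher by 0.80 ± 0.075 (limma, adjusted p = 0.00254) on the first scale and lower by −0.49 with spiked-in scaling (adjusted p = 0.00932). The log2 ratio of Ccl2 to Ccl5 changed by 1.90, or 3.73-fold. Ccl6, a myeloid chemokine, read 23.8 and 21.6 before and 23.9 and 18.0 after OGD, a raw signal with overlapping groups. This came to 1.24 on the first scale (limma, adjusted p = 0.00277) and to −0.046 with spiked-in scaling (adjusted p = 0.755). Ccl9, also a myeloid chemokine, read 18.9 and 18.2 before and 12.8 and 7.24 after OGD, the last not well above background, a difference of 0.43 that did not pass (limma, adjusted p = 0.191) and of −0.86 with spiked-in scaling. Without the second OGD array, which held the dim Ccl9 spot, the difference was 0.74 and passed, in a fit that assumes the lone OGD array to vary like the untreated arrays. With normexp background correction it was 1.15 and passed. Ccl4 was well above background on 1 array after OGD only (4.27 and 4.40 before, 9.13 and 3.37 after), and Ccl3, its partner gene, on none.

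The eosinophil attractants Ccl11, Ccl24 and Ccl26, which act through Ccr3, were well above background on no array, with signals between 1.26 and 3.55.

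Of the other CC ligands, only Ccl17 was called higher on both scales. Ccl17, a ligand of Ccr4, read 243 and 230 in untreated AECs and 312 and 250 after OGD. The difference was 1.61 ± 0.093 or 3.06-fold (limma, adjusted p = 0.00114), and 0.32 with spiked-in scaling, close to the threshold (adjusted p = 0.0453). Ccl22, which shares its receptor, was well above background on no array. Ccl28, a mucosal chemokine, read 66.6 and 64.2 before and 42.4 and 45.0 after OGD. It was higher by 0.79 (limma, adjusted p = 0.00895) on the first scale and lower by −0.50 with spiked-in scaling (adjusted p = 0.0152), and the first call was lost without either untreated array (0.76 and 0.83) and in the test of the methods.

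Several of these genes had probes that disagreed. The 3 probes of Ccl19, a ligand of Ccr7, gave differences of 0.47 to 1.68, and the brightest read 64.3 and 52.1 before and 50.1 and 52.3 after OGD. It was higher by 1.20 (limma, adjusted p = 0.00616) on the first scale, against −0.092 with spiked-in scaling (adjusted p = 0.570), and the call was lost in the test of the methods. With spiked-in scaling the others were at −0.82 (adjusted p = 0.00645) and 0.39 (adjusted p = 0.0686). Of the 3 tested probes of Ccl25, the thymic ligand of Ccr9, the brightest read 2165 and 2203 before and 1145 and 820 after OGD and did not pass at 0.20 (limma, adjusted p = 0.239). One was higher by 0.72 (limma, adjusted p = 0.0247). The other, 11.2 kb from the brightest, read 66.7 and 65.5 before and 13.96 and 16.3 after OGD and was lower by −0.76 (limma, adjusted p = 0.0216). With spiked-in scaling all 3 Ccl25 probes were lower, by −0.57 to −2.05. Without the second OGD array the brightest Ccl25 probe was at 0.35 and passed, with the same assumption for the lone array.

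The 4 probes of Ccl27a, a skin-homing chemokine whose locus holds near-identical copies in the mouse, gave 0.48, 0.53, −0.17 and −0.37. The brightest read 1738 and 1669 before and 926 and 913 after OGD. It was called higher on the first scale (limma, adjusted p = 0.0178) and lower by −0.80 with spiked-in scaling, and without either untreated array the first call was lost (0.44 and 0.52). The call was also lost with the percentile taken over probes well above background (0.33), with the mean over the probes (0.12) and in the test of the methods. The 2 higher probes carry 1 accession and the 2 others another, and between the brightest probes of these pairs, 3.72 kb apart, the log2 ratio changed by 0.66 or 1.58-fold on any scale. Values of Ccl27a and Ccl19 are uncertain, since near copies of these genes could share signal.

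Ccl1, a ligand of Ccr8, was the only gene called lower on the first scale. Its brighter probe read 22.9 and 21.5 in untreated AECs and 6.53 and 5.71 after OGD, where it was not well above background. It was at least 1.27-fold lower (limma, adjusted p = 0.0110), and its second probe was well above background on no array. Without either untreated array the fitted value was −0.43 and −0.54 and the call was lost, and with normexp background correction the gene was called higher (0.94, limma, adjusted p = 6.93e-05). Ccl20, the ligand of Ccr6, was well above background on no array.

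Cx3cl1, or fractalkine, the membrane-bound ligand of Cx3cr1, passed the test only with spiked-in scaling and with quantile normalization. With quantile normalization it was lower by −0.34 (limma, adjusted p = 0.0436). It read 22824 and 23134 in untreated AECs and 11351 and 8600 after OGD. On the first scale it differed by 0.16 and did not pass (limma, adjusted p = 0.261), and with spiked-in scaling it was lower by −1.13, the same as the median of all genes. Xcl1, a ligand made by lymphocytes, was well above background on no array.

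Many chemokine genes lie in clusters, and in 5 of them several genes were read (mm9, as the file headers give it). On chromosome 5 between 91190490 and 91334593 the 5 ELR genes had Cxcl5 at −0.15 at one end and Cxcl1 at 3.26 and Cxcl2, at least 31.4-fold higher, at the other, with Cxcl3 and Cxcl15 between them not tested. With normexp background correction Cxcl2 was at 2.46 and Cxcl1 at 2.84, so that the order of this pair is not settled. On chromosome 11 between 81850650 and 81990510, Ccl2 and Ccl7 at one end were at 2.70 and 4.02 and Ccl1 at the other end was at least 1.27-fold lower, with Ccl11, Ccl12 and Ccl8 between them not tested. The second cluster of chromosome 11, between 83339296 and 83478111, held Ccl5, Ccl9 and Ccl6 between 0.43 and 1.24 on the first scale, all below 0 with spiked-in scaling. On chromosome 8, Ccl17 was at 1.61 and its neighbor Cx3cl1 at 0.16, against 0.32 and −1.13 with spiked-in scaling. In the first and second of these regions an adjacent pair at one end thus held the higher genes.

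**Figure D4:**
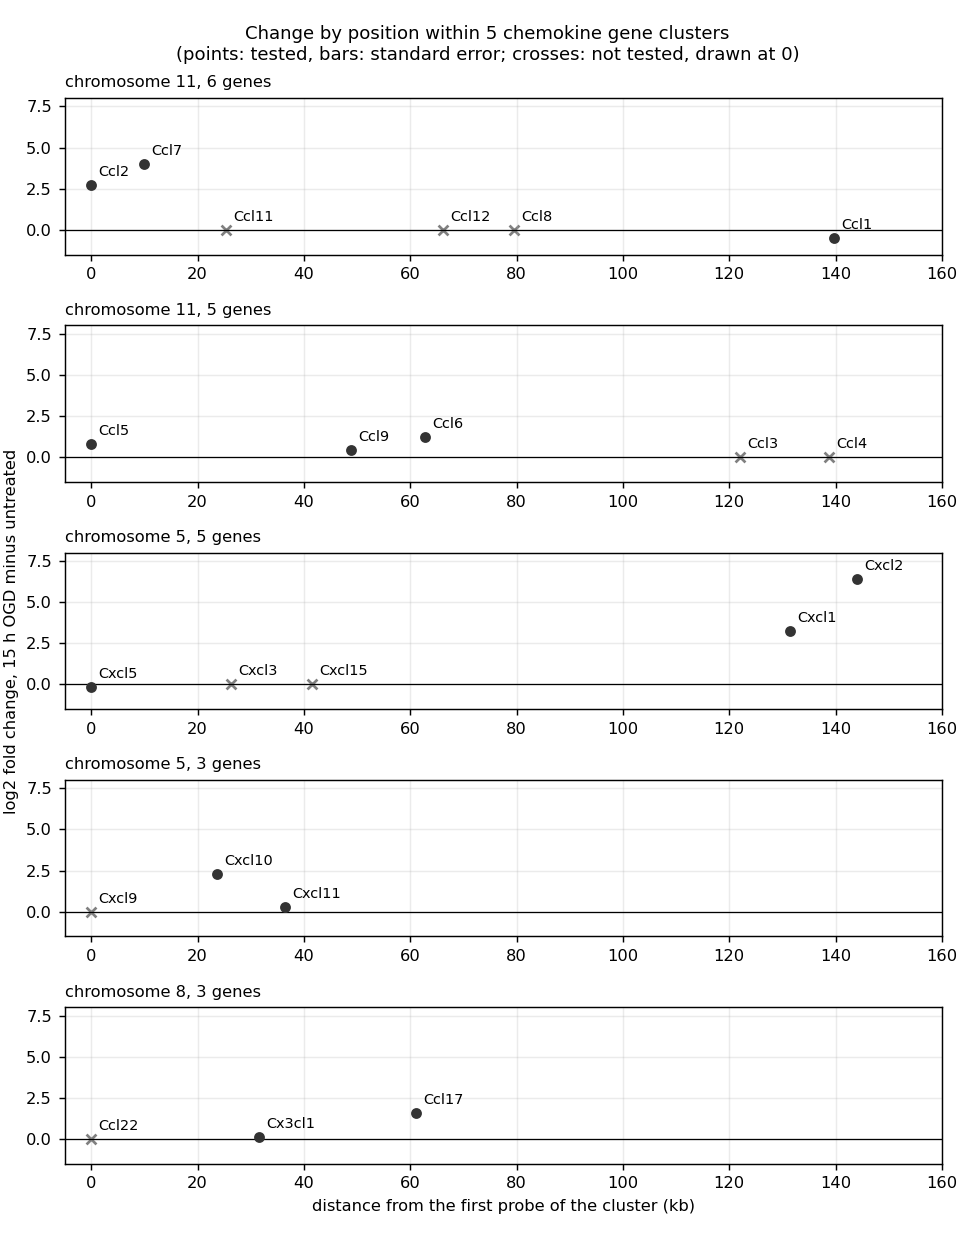
Log2 fold change (15 h OGD minus untreated, 75th-percentile scaling, bars are standard errors) against distance in kb from the first probe of each of 5 chemokine gene clusters. Crosses drawn at 0 are genes that were not tested; Cxcl1 and Cxcl2, and Ccl2 and Ccl7, stand as adjacent pairs, and with spiked-in scaling Ccl5, Ccl6, Ccl9, Cxcl11 and Cx3cl1 fall below 0.

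Among the receptors of these ligands, Cxcr4 was higher after OGD on both scales. Of 19 chemokine receptor genes, 10 were well above background on no array, 7 were tested, of which 2 were higher and 0 lower (against 37.1% and 27.8% of all genes tested), with 1 higher and 5 lower with spiked-in scaling (against 3.84% and 83.3%). Cxcr4, the receptor of Cxcl12, read 664 and 644 before and 802 and 863 after OGD. The difference was 1.72 ± 0.13 (limma, adjusted p = 0.00175), and 0.43 with spiked-in scaling (adjusted p = 0.0269). Ccr8, the receptor of Ccl1, was higher by 0.54 on the first scale (limma, adjusted p = 0.0190) and lower by −0.75 with spiked-in scaling. Cxcr3 read 11.8 and 10.1 before and 5.69 and 8.92 after OGD and did not pass on either scale (0.76, limma, adjusted p = 0.109, and −0.53 with spiked-in scaling, adjusted p = 0.130). The median of the 7 genes was 0.39, against −0.89 with spiked-in scaling.

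Atypical chemokine receptors bind ligands without classical signaling and clear them. Of the 5 genes tested, 0 passed in either direction in limma (against 37.1% higher and 27.8% lower of all genes), and with spiked-in scaling all 5 were lower, as were 83.3% of all genes. Ackr3, the second receptor of Cxcl12, read 4847 and 5635 before and 1760 and 1849 after OGD, a difference of −0.16 (limma, adjusted p = 0.362). Ackr4 was at −1.02 (limma, adjusted p = 0.0593) and Ackr2 at −0.40 (limma, adjusted p = 0.145), both with signals after OGD near background. Of the chemokines outside the symbol rule, Cklf was higher by 0.30 (limma, adjusted p = 0.0379) and lower by −0.99 with spiked-in scaling, and the platelet genes Pf4 and Ppbp were well above background on no array.

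Of 13 proteases that are known to trim chemokines, 8 were tested, of which 4 were higher and 0 lower (against 37.1% and 27.8% of all genes), with 1 higher and 7 lower with spiked-in scaling (against 3.84% and 83.3%). Mmp13, a collagenase, read 16.7 and 15.5 before and 90.1 and 49.1 after OGD, a difference of 3.42 ± 0.26 (limma, adjusted p = 0.00174) and of 2.13 with spiked-in scaling. Mmp3, or stromelysin, and Mmp2, or gelatinase A, were higher by 0.96 and 0.81 (limma, adjusted p = 0.00196 and 0.00837) on the first scale, against −0.32 and −0.48 with spiked-in scaling.

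A list of NF-κB subunits, inhibitors and targets held genes that were higher and genes that were lower. It includes adhesion molecules such as Icam1 and Vcam1 beside inhibitors. Of 14 genes, all tested, 7 were higher and 3 lower (against 37.1% and 27.8%), and with spiked-in scaling 2 were higher and 11 lower (against 3.84% and 83.3%). Tnfaip3, which encodes the deubiquitinase A20, read 598 and 618 before and 4072 and 3951 after OGD, a difference of 4.09 ± 0.092 (limma, adjusted p = 0.000729) and of 2.81 with spiked-in scaling. Nfkbiz, an atypical inhibitor protein of the family, was higher by 2.55 (limma, adjusted p = 0.00942), and Nfkbie, another inhibitor, was lower by −1.70 (limma, adjusted p = 0.000965), against 1.26 and −2.99 with spiked-in scaling.

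Among interferon-stimulated genes, more were lower than higher after OGD. Of 18 genes, all tested, 2 were higher and 7 lower (against 37.1% and 27.8% of all genes), and with spiked-in scaling all 18 were lower (against 83.3%), with medians of −0.18 and −1.47. Rsad2, or viperin, read 221 and 223 before and 11.4 and 9.12 after OGD, a difference of −3.07 ± 0.088 (limma, adjusted p = 0.000729). Mx1, an antiviral GTPase, was lower by −1.02 (limma, adjusted p = 0.0173), but it was not well above background on the second OGD array and was at 0.83 with normexp background correction. Cxcl10, itself counted among interferon targets, was higher while Rsad2 was lower, on both scales and with normexp background correction, which put Rsad2 at −0.90.

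**Figure D5:**
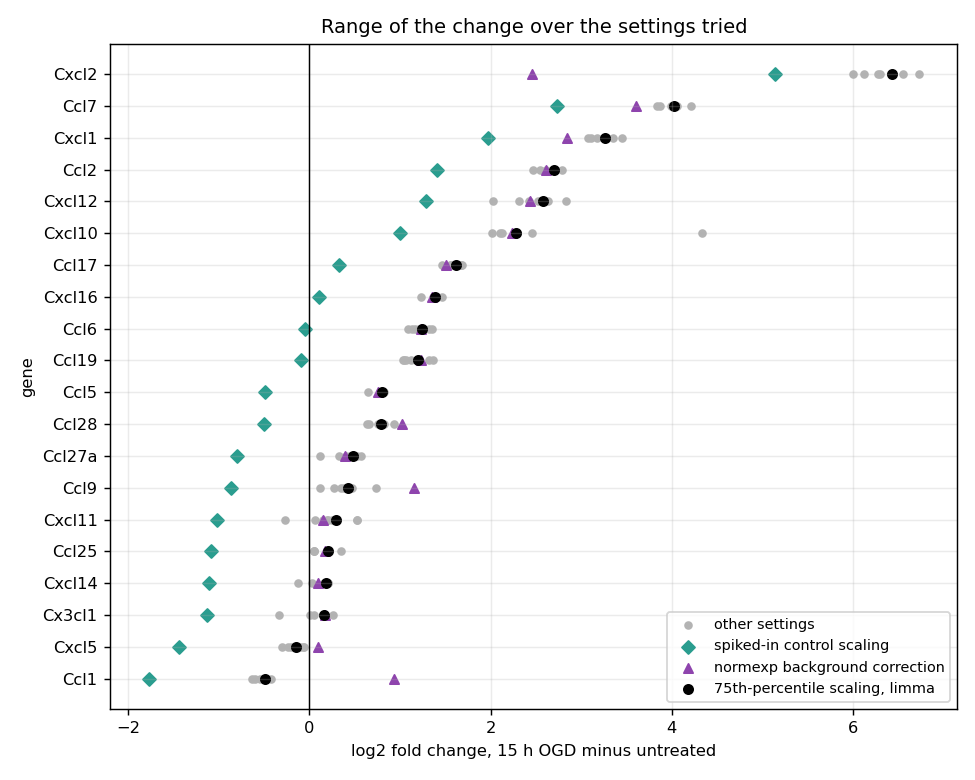
Log2 fold change (15 h OGD minus untreated) of the 20 tested genes under the settings tried, with 75th-percentile scaling and limma in black, spiked-in control scaling as diamonds and normexp background correction as triangles. From Cxcl2 to Ccl17 (7 genes) every setting lies right of 0, as it does for the next gene, Cxcl16 (lowest value 0.10). Ccl1 runs from −1.77 with spiked-in scaling to 0.94 with normexp background correction.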

How the data were processed

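The authors amplified and labeled total RNA of untreated AECs and of AECs after 15 h of OGD with Cy3 and hybridized each sample to a mouse array in a single color. The authors deposited the processed signal of Feature Extraction (11.5.1.1 in the submitters' processing notes), which is an intensity with background subtracted within each array and without normalization between arrays. The series table holds the same values (largest difference 0). Probe positions are on mm9, and gene names are those of the array design. All 35 symbols and 41 of the 48 probe accessions were found in the RefSeq table, these 41 with the same symbol.

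Control spots and outlier spots were dropped. The log2 values of repeated spots were averaged per probe, and the 75th percentile of each array was subtracted, as in the methods. A probe counted as well above background if at least 0.5 of its spots were so marked. Probes so marked on both untreated arrays or on both OGD arrays (28254) entered limma 3.58.1 in R 4.3.3, with Benjamini–Hochberg adjustment over these probes, an adjusted p limit of 0.05 and the fold limit of 10 of the methods. No spot was saturated (0). Where a probe was dim on both arrays of a group, the fold is a bound, from means of scaled log2 values in which each dim array has the higher of its lowest well above background signal and the probe's own. Arrays have no read depth, and precision rests on their number and on signal over background. Replicates correlated at r = 0.998 and 0.995 across probes, which are not independent.

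The genes named were all those of the symbol rule and, from each gene list, the 3 tested genes with the largest absolute difference, of which some are not reported here. Others named, such as Cd68 and Gfap, were chosen after their values were seen. The members and lists were chosen with earlier results of these data known. The lists were chemokine receptors, atypical receptors, chemokines outside the symbol rule, chemokine-processing proteases, NF-κB feedback genes, interferon-stimulated genes and cell markers. Of the marker lists, beside 37.1% of all genes higher and 27.8% lower, 6 of 10 tested astrocyte markers were higher and 1 lower, 5 and 2 of 13 microglia markers, 0 and 2 of 4 endothelial markers, 1 and 2 of 7 fibroblast markers, 3 and 4 of 9 oligodendrocyte lineage markers, 2 and 2 of 5 neuron markers, 2 and 0 of 2 T and NK cell markers, and 1 and 0 of 3 neutrophil markers. With spiked-in scaling, beside 3.84% of all genes higher and 83.3% lower, 1 microglia marker was higher and 0 of the other lists, and the lower markers numbered 8 for astrocytes, 10 for microglia, 4 for endothelium, 6 for fibroblasts, 8 for the oligodendrocyte lineage, 5 for neurons, 1 for T and NK cells and 3 for neutrophils. Alternatives were a prior with trend and robust fit in limma, the methods' t-test, the replicate block, normexp (offset 50), other scalings, other filters, outlier spots kept, the series table, the mean over probes and each array left out. The steps were tested on simulated data. Python 3.11.15 drew the figures with matplotlib 3.10.9, and pandas 2.3.3 and numpy 2.4.6 handled tables.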

Additional observations from a re-analysis of the deposited data

How the results depend on the processing

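Over the settings tried, 302 values for single genes kept their direction and side of the threshold, 15 reversed, 13 lost the threshold and 5 passed it. Ccl2, Ccl7, Ccl17, Cxcl1, Cxcl2, Cxcl10 and Cxcl12 kept both in every setting that gave a value, with ranges of 1.41 to 2.79 for Ccl2, 2.73 to 4.21 for Ccl7, 1.97 to 3.45 for Cxcl1, 2.46 to 6.73 for Cxcl2, 0.99 to 4.33 for Cxcl10, 1.29 to 2.84 for Cxcl12 and 0.32 to 1.68 for Ccl17. The mean over a gene's probes put Cxcl10 at 4.33 and 3 genes over 10-fold. With spiked-in scaling 7 genes were higher, 1 of them over 10-fold, and 10 lower, and the median was −0.29. The values then were Ccl5 −0.49, Ccl6 −0.046, Ccl9 −0.86, Ccl19 −0.092, Ccl25 −1.09, Ccl27a −0.80, Ccl28 −0.50, Cx3cl1 −1.13, Cxcl11 −1.02 and Cxcl14 −1.10. Without a filter on dim probes 23 genes were higher, and by construction 15 more genes then entered. With normexp background correction 15 genes were higher, 1 of them over 10-fold, and 0 lower, with Ccl1 at 0.94 and Cxcl5 at 0.089. With a filter on all 4 arrays 12 genes were higher, 1 of them over 10-fold, and 0 lower, since Cxcl2 and Ccl1 left. With a trend and robust prior 0 genes were lower, and with quantile normalization 2 were, with Cx3cl1 at −0.34, Cxcl11 at −0.27 and Cxcl14 at −0.12. Where not stated, the cause was not tested. Leaving out each array in turn gave 11 to 16 genes higher, 0 to 1 lower, 2 to 3 over 10-fold and a median of 0.81 to 1.07. The methods' t-test called 10 higher and 1 lower, and Ccl19, Ccl27a and Ccl28 lost the call. The replicate numbers share only a number, since deviations of same-numbered arrays correlated at −0.057, and the replicate block gave 13 higher and 1 lower. Cxcl11 gave no value with the filter on all 4 arrays or without OGD replicate 2. Signals near background limit Ccl1, Ccl6, Ccl9 and the untreated level of Cxcl2.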
